A study of Mus musculus with 11 samples.

Results

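A set of 39 cell proliferation genes was followed in the gonadal white adipose tissue (WAT) of mice on a high fat diet, 11 that act in S phase and 28 that act in mitosis. The members were named by symbol for their known function, with earlier results of these data known. All 39 were found among the 12787 genes listed in the table. Male C57BL/6J mice were fed a 60% high fat diet (HFD) for 20 weeks, either alone (labelled vehicle, n = 5, called HFD mice here) or with 0.06% w/w iodomethylcholine in the diet (HFD + IMC, n = 6, called IMC mice here). IMC is a small molecule that blocks the gut bacterial enzyme that cleaves choline to trimethylamine. Both groups therefore share the diet, and no low fat diet group is among these samples. The paper reports that IMC limited obesity and lowered fat mass in HFD-fed mice, so the groups need not be equally obese. The labels state that 1 more HFD library was made and dropped for its quality. The age of these mice was not given in the sources used here. Each library came from whole tissue of 1 mouse, so the values cannot show which cells were dividing, and fewer cells of a type and less RNA per cell cannot be told apart.

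A cell copies its DNA in S phase and separates the copies in mitosis, and the 2 phases draw on different sets of genes. S phase genes are switched on by E2F transcription factors once the retinoblastoma protein is inactivated. Mitosis genes follow later in the cycle under B-MYB and FOXM1, which act through a short promoter element called the cell cycle genes homology region (CHR), and in resting cells the DREAM complex represses both sets. Mature adipocytes do not divide, so in WAT these transcripts are known from the other cells of the tissue, above all macrophages that proliferate in obese fat, adipocyte progenitors and endothelial cells.

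The promoter sequences of 6 members are printed because Mcm6 and the mitosis genes among them hold the elements found mainly in one class, while Rrm1 shows an S phase promoter with CCAAT boxes alone in this stretch. Each line is the gene strand of the 120 bases that end just before the annotated start, 5′ to 3′, from RefSeq on GRCm38.p6. Capitals mark an E2F site (TTTGGCGC, TTTGCCGC, TTTCGCGC or TTTCCCGC), a CHR (TTTGAA) or a CCAAT box (CCAAT, the site of NF-Y), each on either strand. Mcm6 and Rrm1 belong to S phase and lie at chr1:128359706-128359825 (minus strand) and chr7:102441575-102441694 (plus strand). Mki67 (chr7:135716380-135716499, minus), Cdk1 (chr10:69352913-69353032, minus), Top2a (chr11:99024190-99024309, minus) and Kif11 (chr19:37376262-37376381, plus) belong to mitosis.
Mcm6: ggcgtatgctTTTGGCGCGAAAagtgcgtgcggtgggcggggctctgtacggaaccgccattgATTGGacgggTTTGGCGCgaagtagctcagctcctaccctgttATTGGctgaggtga
Rrm1: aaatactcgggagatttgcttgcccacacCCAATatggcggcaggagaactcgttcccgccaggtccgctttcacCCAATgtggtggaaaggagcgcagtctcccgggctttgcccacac
Mki67: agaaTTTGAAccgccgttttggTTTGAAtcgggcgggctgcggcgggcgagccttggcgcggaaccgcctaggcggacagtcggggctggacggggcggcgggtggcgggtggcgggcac
Cdk1: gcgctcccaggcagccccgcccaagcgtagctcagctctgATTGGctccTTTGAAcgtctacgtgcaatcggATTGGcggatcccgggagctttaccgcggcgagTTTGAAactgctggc
Top2a: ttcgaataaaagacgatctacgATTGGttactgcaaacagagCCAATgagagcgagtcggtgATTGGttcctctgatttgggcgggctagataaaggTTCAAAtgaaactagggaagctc
Kif11: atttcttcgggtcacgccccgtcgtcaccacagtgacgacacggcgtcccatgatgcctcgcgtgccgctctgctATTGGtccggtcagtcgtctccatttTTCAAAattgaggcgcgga

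In Mcm6, E2F letters began 110, 106 and 47 bases before the start, the first 2 of them overlapping on opposite strands. Rrm1 held no match to the E2F letters in this stretch but had CCAAT boxes 91 and 45 bases before the start. A CHR began 116 and 98 bases before the start of Mki67, 71 and 15 bases before that of Cdk1, 23 bases before that of Top2a and 19 bases before that of Kif11. In Cdk1, Top2a and Kif11 the CCAAT boxes lay upstream of the CHR nearest to the start. The RefSeq spans of Mki67 and Top2a reach to chr7:135716450 and chr11:99024199, so part of their printed stretches lies inside the gene. Of the Cdk1 stretch, 26 bases lie in GENCODE exons. A match is a description of the letters, and binding was not measured.

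Of the 39 members, 31 had a promoter in the RefSeq table, with 35 annotated starts, each covering 250 bases before to 50 after the start. Mcm4, Lmnb1, Ccna2, Aurkb, Kif20a, Tpx2, Stmn1 and Smc4 had no entry. A CHR was found at 19 of the 23 starts of mitosis members (82.6%) and at 1 of the 12 starts of S phase members (8.33%), that of Mcm2. The share was 11.9% over the 12440 starts of listed genes and 17.9% over all 32851 starts in the table. When only the 250 bases before the start were read, 12 of the 23 mitosis starts held a CHR (52.2%), so that 7 starts had it only in the 50 bases after. Among the mitosis members with an entry, Nusap1, Bub1, Birc5 and Ccnb1 had none in the window. E2F sites were found at 5 of the 12 S phase starts (41.7%), those of Mcm3, Mcm5, Mcm6, Mcm7 and Uhrf1, and at 2 of the 23 mitosis starts (8.7%), those of Cdk1 and Ncapd2. They were found at 3.74% of the starts of listed genes. CCAAT boxes were common to both classes, at 11 of 12 S phase starts (91.7%) and 20 of 23 mitosis starts (87%), against 37.2% of the starts of listed genes. No test was made of these shares, since the genes were named for functions whose promoters are well studied.

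**Figure D1:**
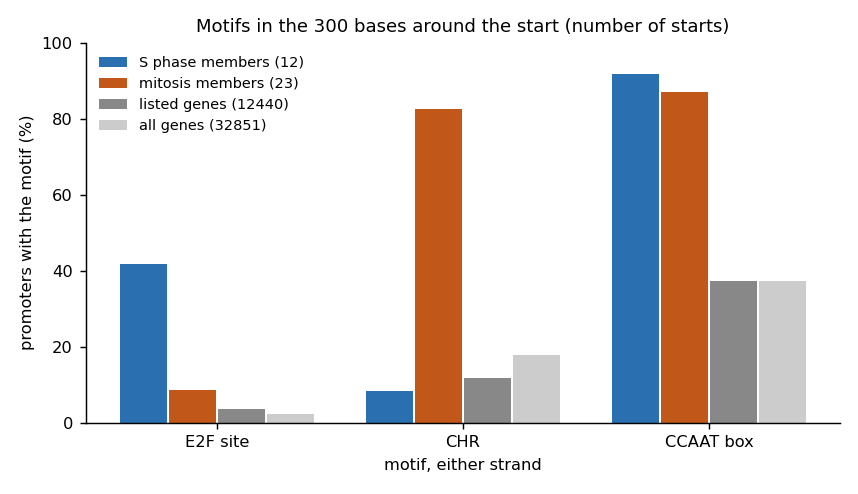
Share of annotated starts with an E2F site, a CHR or a CCAAT box on either strand between 250 bases before and 50 after the start, in percent, for S phase members, mitosis members, listed genes and all genes. The CHR bar stands at 82.6% for mitosis members and 8.33% for S phase members, whereas the CCAAT box bars of both classes are of similar height (91.7% and 87%).

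The transcripts of the members were well above the lowest level in the table, with at least 71 reads for every member in every mouse and a median of 522 reads per mouse. Libraries held 22320022 to 23635249 reads on listed genes in HFD mice and 22619505 to 25155366 in IMC mice. Levels are given as log2 CPM, the count relative to the upper-quartile scaled library size, and levels of different genes are compared only as CPM per kilobase of the longest coding transcript. On this scale Pcna was the highest member in HFD mice (57.2 CPM per kb), followed by Mcm6 (16.5), Mcm3 (16.3), Rrm1 (15.5), Smc4 (14.6) and Top2a (13.7). The lowest were Hmgb2 (1.76), Ccnb1 (2.03) and Ect2 (2.79). For 7 members more than 10% of the 50-base windows of their transcripts also occur in another annotated gene, such as the pseudogenes Pcna-ps2 and Ccnb1-ps. These were Ccnb1 (40.6%), Pcna (31.8%), Stmn1 (25.5%), Hmgb2 (21.2%), Mcm7 (19.9%), Uhrf1 (17.9%) and Cdc20 (11.4%), and how the shared reads were assigned can move their levels. By RefSeq positions, 15 members overlap another gene, among them Ccna2, Cdc20, Aurka, Top2a, Anln and Ect2. The kit marked the strand, but the strand setting of the count was not stated, so their counts may include reads of the partner.

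The comparison asked whether IMC changed the expression of these genes in WAT of HFD-fed mice. Genes were compared with limma on log2 CPM, and a gene was called when its p, adjusted by Benjamini-Hochberg over all listed genes, was under 0.05. A negative log2 fold change means lower in IMC mice. Of the 39 members, 8 were called lower in IMC mice (20.5%) and 0 higher. Over all listed genes 40.9% were called, 21.0% lower and 20% higher, so that the share of members called lower was close to the background when all mice were used. The count of 0 higher stayed 0 at an unadjusted p under 0.05 and with limma voom. The median log2 fold change of the members was -0.19, against -0.03 over all genes, and the estimate was below 0 for 37 of 39 members (94.9%), against 54.4% of all genes. The members rose and fell together from mouse to mouse, so these 37 estimates are not independent observations, and no test was made of them as a group. All differences were small, between -0.45 and 0.19 on the log2 scale.

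**Figure D2:**
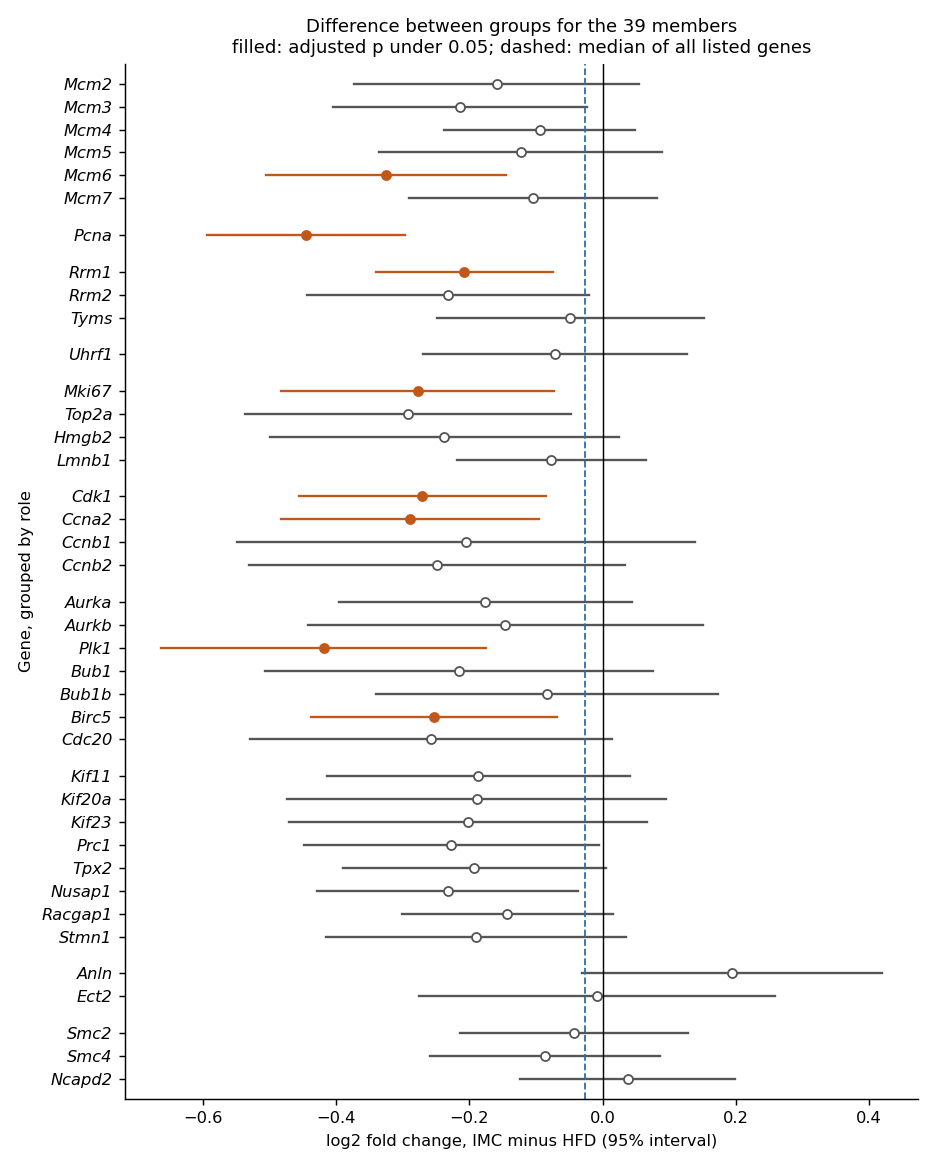
Log2 fold change (IMC minus HFD) of the 39 members on the x axis, with the 95% interval from limma, grouped by role on the y axis. Filled orange points are the 8 members with an adjusted p under 0.05, and the dashed line is the median of all listed genes (-0.03). All but Anln and Ncapd2 lie left of 0, and most intervals reach 0.

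Of the 11 S phase members, 3 fell (27.3%, against 21.0% of all listed genes) and 8 did not pass the test. The median log2 fold change of the class was -0.16. Pcna, the sliding clamp that holds DNA polymerase on its template, fell the most. Its log2 CPM was 6.53, 6.31, 6.55, 6.37 and 6.43 in the HFD mice, and the IMC mice ranged from 5.80 to 6.19 with a median of 5.98. Every IMC mouse was below every HFD mouse. The log2 fold change was -0.45 ± 0.07 (SE), or 0.735-fold (limma adjusted p = 0.00033). A two-sided exact permutation test over the 462 splits of the 11 mice gave p = 0.00216, the smallest it can give. The call was kept in every alternative run.

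The Mcm2 to Mcm7 proteins form the ring-shaped helicase that opens the replication fork, and 1 of the 6 genes was called. Mcm6 had log2 CPM of 6.11, 6.00, 6.36, 6.30 and 6.02 in HFD mice, and between 5.63 and 6.01 in IMC mice with a median of 5.88. All but 1 of the IMC mice lay below all HFD mice. This was a log2 fold change of -0.32 ± 0.08 (SE, limma adjusted p = 0.00787), and the exact permutation p was 0.00649. Mcm2 had log2 CPM of 4.89, 4.62, 5.17, 5.06 and 4.82 in HFD mice and 4.63 to 5.01 in IMC mice, with a median of 4.68. All IMC mice lay within the HFD range for Mcm2, and its log2 fold change of -0.16 ± 0.10 (SE) did not pass (limma adjusted p = 0.221). The other helicase genes had log2 fold changes of -0.21 (Mcm3, limma adjusted p = 0.0684), -0.12 (Mcm5), -0.10 (Mcm7) and -0.09 (Mcm4). The 6 subunits stand in equal numbers in the ring, and their log2 fold changes at the mRNA level ranged from -0.32 to -0.09, a range whose differences were not tested.

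Of the 3 nucleotide supply genes, 1 was called. Rrm1, the large subunit of ribonucleotide reductase, had log2 CPM of 5.90, 5.92, 6.10, 6.01 and 5.84 in HFD mice and 5.65 to 5.93 in IMC mice, with a median of 5.73. All but 1 IMC mouse, replicate 4, lay below the lowest HFD mouse. Its log2 fold change was -0.21 ± 0.06 (SE, limma adjusted p = 0.0169, exact permutation p = 0.013), and without HFD replicate 3 the adjusted p was 0.0509. Rrm2, the small subunit that is made only in dividing cells, was at 4.09, 4.26, 4.43, 4.32 and 4.10 in HFD mice and 3.70 to 4.25 in IMC mice, with a median of 4.06. The log2 fold change of Rrm2 was as large (-0.23 ± 0.10, SE) but did not pass (limma adjusted p = 0.0762), except with total-count scaling (0.0432) and without IMC replicate 4 (0.0336). Tyms, thymidylate synthase, showed the smallest difference of the class. It was at 3.21, 3.35, 3.64, 3.54 and 3.49 in HFD mice and 3.21 to 3.54 in IMC mice, with a median of 3.44, and the log2 fold change was -0.05 (95% interval -0.25 to 0.15). Uhrf1, which carries DNA methylation over to the new strand, had log2 CPM of 4.07, 4.05, 4.45, 4.16 and 4.29 in HFD mice and 3.92 to 4.31 in IMC mice, with a median of 4.14. Its groups overlapped, with 2 IMC mice below all HFD mice, and the log2 fold change was -0.07 (95% interval -0.27 to 0.13).

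Of the 28 mitosis members, 5 fell (17.9%, against 21.0% of all listed genes), 0 rose and 23 did not pass. The median log2 fold change of the class was -0.20. Plk1, a kinase that drives centrosome maturation and chromosome separation, fell the most. Its log2 CPM was 3.29, 3.24, 3.58, 3.28 and 3.36 in HFD mice and 2.62 to 3.23 in IMC mice, with a median of 2.93. The groups did not overlap, although the highest IMC mouse (3.23) reached almost to the lowest HFD mouse (3.24). Plk1 had a log2 fold change of -0.42 ± 0.11 (SE), or 0.748-fold (limma adjusted p = 0.0103, exact permutation p = 0.00866), and the call was kept in every alternative run. Plk1 and Pcna were the only members without overlap between the groups, both lower in IMC mice (5.13% of members). Over all listed genes 10.5% had no overlap and were lower and 12.5% had no overlap and were higher. With the mouse medians set equal, 1 member remained without overlap, Pcna, and the share over all listed genes was not computed in that setting.

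Cdk1, the kinase that starts mitosis, had log2 CPM of 4.54, 4.55, 4.90, 4.72 and 4.62 in HFD mice and 4.21 to 4.61 in IMC mice, with a median of 4.41. Only IMC replicate 1 reached into the HFD range. Its log2 fold change was -0.27 ± 0.09 (SE, limma adjusted p = 0.0229, exact permutation p = 0.0152). Ccna2, cyclin A2, which partners CDK2 in S phase and CDK1 at the start of mitosis, was at 5.00, 4.96, 5.30, 5.17 and 4.97 in HFD mice and 4.56 to 5.02 in IMC mice, with a median of 4.82. It too had 1 IMC mouse inside the HFD range, again replicate 1. Ccna2 had a log2 fold change of -0.29 ± 0.09 (SE, limma adjusted p = 0.021, exact permutation p = 0.0152). Ccnb1, cyclin B1, was at 2.22, 1.95, 2.69, 2.37 and 2.34 in HFD mice and 1.69 to 2.47 in IMC mice, with a median of 2.09. At this lower level the mice of a group differed more (SD 0.27 and 0.29), and the log2 fold change of -0.21 ± 0.16 (SE) did not pass. Ccnb2, cyclin B2, had a log2 fold change of -0.25 (limma adjusted p = 0.148). The calls of Cdk1 and Ccna2 were lost without HFD replicate 3 (adjusted p = 0.0661 and 0.0611) and without HFD replicate 4 (0.0511 and 0.0515).

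Mki67, the Ki-67 antigen used to stain cycling cells, had log2 CPM of 6.30, 6.36, 6.59, 6.58 and 6.28 in HFD mice and 5.89 to 6.37 in IMC mice, with a median of 6.17. Of the 6 IMC mice, 4 lay below all HFD mice and 2 among the lower HFD mice. It had a log2 fold change of -0.28 ± 0.09 (SE, limma adjusted p = 0.0321, exact permutation p = 0.0346), and the adjusted p was 0.0863 without HFD replicate 3, 0.0832 without HFD replicate 4, 0.0683 without IMC replicate 2 and 0.0615 without IMC replicate 6. Top2a, the topoisomerase that untangles the chromosomes, was at 5.96, 6.04, 6.44, 6.34 and 5.94 in HFD mice and 5.57 to 6.11 in IMC mice, with a median of 5.92. Its log2 fold change was about the same (-0.29 ± 0.11, SE), and it missed the threshold (limma adjusted p = 0.0545, exact permutation p = 0.0714). Top2a was called with total-count scaling (adjusted p = 0.0335) and without HFD replicate 1, HFD replicate 5 or IMC replicate 4 (0.0458, 0.0367 and 0.0267). Hmgb2, a chromatin protein, and Lmnb1, lamin B1 of the nuclear envelope, had log2 fold changes of -0.24 and -0.08 and did not pass.

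**Figure D3:**
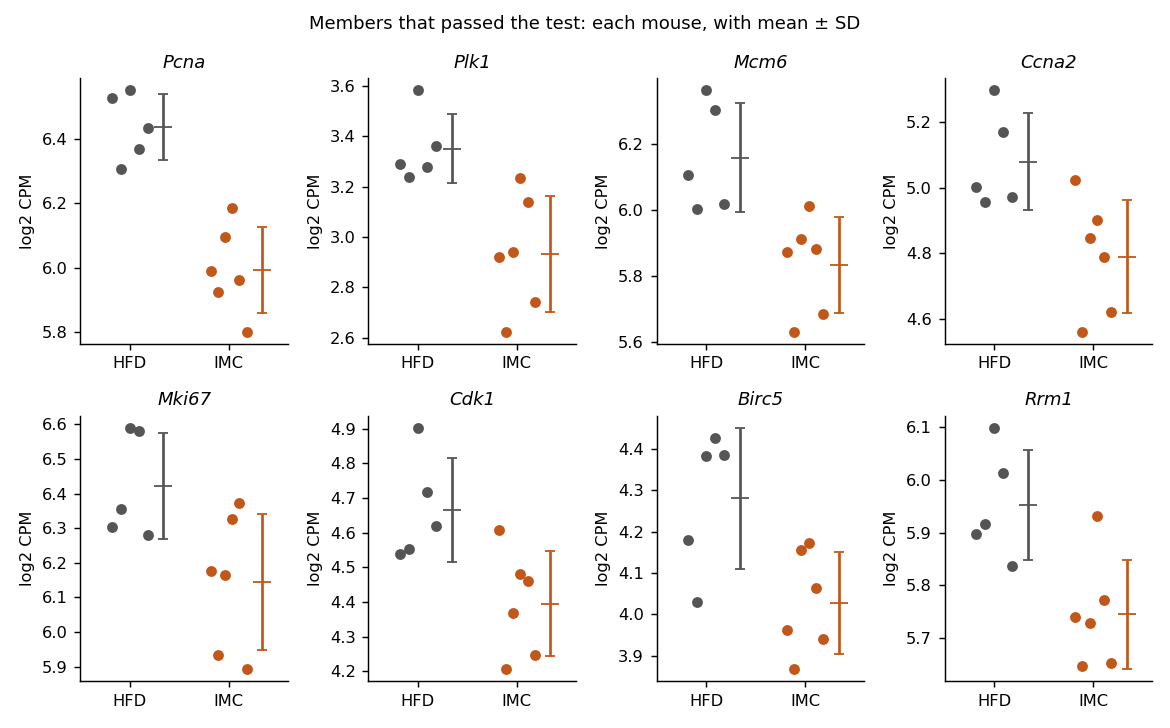
Log2 CPM of the 8 members called lower in IMC mice, 1 point per mouse (HFD n = 5, IMC n = 6), with the mean and SD beside the points and a y axis that does not start at 0. Pcna and Plk1 have no overlap between the groups, and the other 6 have between 1 and 3 IMC mice inside the HFD range.

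Among the mitotic kinases and checkpoint proteins, Birc5, survivin, which guides the Aurora B kinase to the centromere, was also called. Birc5 log2 CPM was 4.18, 4.03, 4.38, 4.43 and 4.38 in HFD mice and 3.87 to 4.17 in IMC mice, with a median of 4.01, so that 3 IMC mice lay inside the HFD range. The log2 fold change was -0.25 ± 0.09 (SE, limma adjusted p = 0.0311, exact permutation p = 0.0303). Birc5 lost its call in more alternatives than any other called member, namely without any 1 of HFD replicates 3, 4 and 5 and IMC replicates 1, 2 and 6, with adjusted p between 0.0578 and 0.0811. Cdc20, which activates the anaphase promoting complex, the Aurora kinases Aurka and Aurkb, and the checkpoint kinases Bub1 and Bub1b had log2 fold changes of -0.26, -0.18, -0.15, -0.22 and -0.08 and did not pass.

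None of the 8 spindle motors and microtubule proteins was called, yet all 8 estimates lay in a narrow range from -0.23 to -0.14. Nusap1, which bundles spindle microtubules, came closest (log2 fold change -0.23, limma adjusted p = 0.0548), followed by Prc1, which crosslinks the central spindle (-0.23, limma adjusted p = 0.0936). The kinesins Kif11, Kif20a and Kif23 had log2 fold changes of -0.19, -0.19 and -0.20. Tpx2, Racgap1 and Stmn1, which act in spindle assembly, the central spindle and microtubule turnover, were at -0.19, -0.14 and -0.19. At an unadjusted p under 0.05, 2 of the 8 were lower (25%), against 25.9% of all listed genes.

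None of the 2 cytokinesis and 3 condensin genes was called, and the only 2 estimates above 0 were among them. Ect2, which switches on RhoA at the cleavage furrow, had log2 CPM of 3.37, 3.33, 3.79, 3.73 and 3.26 in HFD mice and 3.15 to 3.74 in IMC mice, with a median of 3.51, and the log2 fold change was -0.01 (95% interval -0.28 to 0.26). Its sign turned when HFD replicate 3 or 4 or IMC replicate 2, 5 or 6 was left out. Anln, anillin, a scaffold of the contractile ring, had the highest estimate of all members and is singled out here after its values were seen. Anln was at 4.71, 4.75, 5.03, 4.84 and 4.69 in HFD mice and 4.62 to 5.33 in IMC mice, with a median of 5.00. The highest IMC mouse, replicate 1, and the lowest, replicate 6, enclosed the whole HFD range. The log2 fold change of 0.19 ± 0.10 (SE) did not pass (limma adjusted p = 0.156), although Anln was called higher when IMC replicate 6 was left out. The condensin subunits Smc2, Smc4 and Ncapd2, which compact mitotic chromosomes, had log2 fold changes of -0.04, -0.09 and 0.04, and the intervals of all 3 lay between -0.26 and 0.20.

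The levels of the members moved together within each group. Among HFD mice, replicate 3 was the highest for 28 of the 39 members (71.8%) and replicate 4 for 10, whereas over all listed genes they were the highest for 18.5% and 19.6%. Neither was the lowest HFD mouse for any member, and replicate 2 was the lowest for 19. Among IMC mice, replicate 4 was the highest for 25 members (64.1%), against 17% of all listed genes. IMC replicates 2 and 6 were the lowest for 21 and 13 members. S phase and mitosis genes placed the mice in much the same order, with HFD replicate 3 highest and HFD replicate 4 next in the mean of both classes. IMC replicate 1 was an exception. It was the highest IMC mouse for 8 of 28 mitosis members, Ccnb1, Ccnb2, Cdk1, Ccna2, Anln and Ect2 among them, and for 0 of 11 S phase members.

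**Figure D4:**
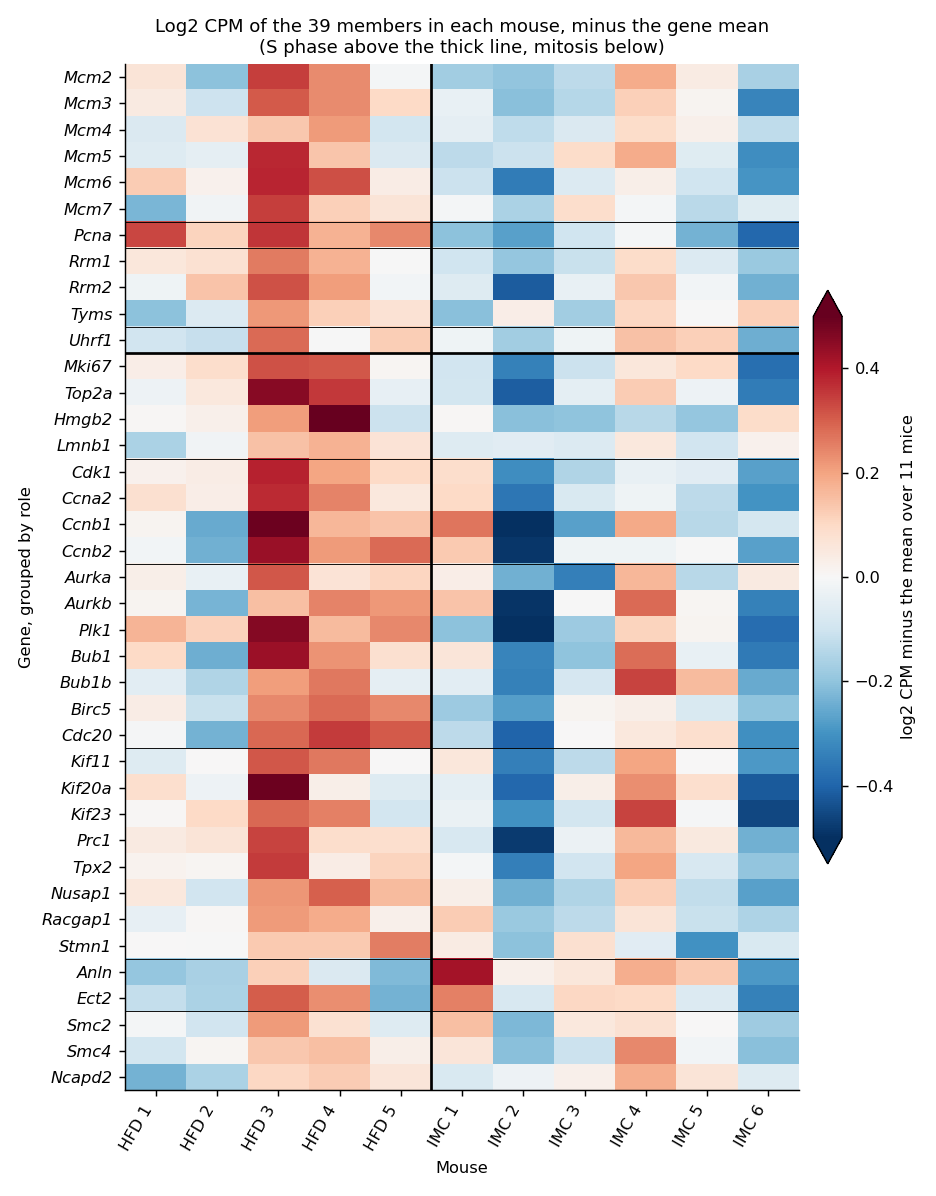
Log2 CPM of the 39 members (rows, grouped by role) in the 11 mice (columns), with the mean of each gene over all mice subtracted and the color scale cut at 0.5 on either side. The columns of HFD replicates 3 and 4 and of IMC replicate 4 are red for most genes, and those of IMC replicates 2 and 6 are blue, and the groups overlap for 37 of the 39 genes.

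The number of members called lower was 8 with all mice and ran from 3, without HFD replicate 3, to 15, without IMC replicate 4. These were 7.69% of the members, against 16.5% of all listed genes called lower in the same fit, and 38.5% of the members, against 20.1%. Whether the members' share was below, near or above the background thus depended on single mice. Without HFD replicate 3, the remaining calls were Pcna, Mcm6 and Plk1. Without HFD replicate 4 there were 4, these and Rrm1. Without IMC replicate 4 the 8 calls were kept, and Kif23, Mcm3, Nusap1, Prc1, Rrm2, Top2a and Tpx2 were added.

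Other genes of the same processes, taken from hand-written lists, were called in both directions, more often lower than higher. Of 63 further S phase genes, 9 fell and 2 rose, with a median log2 fold change of -0.08, and 73% of the estimates were below 0. Gmnn, geminin, which blocks a second round of origin licensing, fell by 0.37 on the log2 scale (limma adjusted p = 0.0024) and Pold3, a subunit of DNA polymerase delta, fell by 0.26 (limma adjusted p = 0.0027). Orc2, a subunit of the origin recognition complex that is also present in resting cells, rose by 0.25 (limma adjusted p = 0.0029).

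Of 80 further mitosis genes, 16 fell (20%) and 1 rose, with a median log2 fold change of -0.19, and 86.2% of the estimates were below 0. Cdca5, sororin, which protects cohesion between sister chromatids, fell by 0.53 on the log2 scale (limma adjusted p = 0.0024). Cdca8, borealin, a partner of Birc5 and Aurkb in the chromosomal passenger complex, fell by 0.35 (limma adjusted p = 0.0029). Spc25, a subunit of the NDC80 kinetochore complex, rose by 0.33 (limma adjusted p = 0.0059), while Ndc80 and Nuf2 of the same complex fell by 0.43 and 0.36 (limma adjusted p = 0.0109 and 0.0074), both named here after their values were seen.

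Of 33 regulators of the cycle, 6 fell and 4 rose, with a median log2 fold change of -0.09. Rb1, the retinoblastoma protein that holds E2F in check, rose by 0.34 (limma adjusted p = 0.001). Lin52, a core subunit of DREAM, rose by 0.38 (limma adjusted p = 0.0018). Cdkn1b, the CDK inhibitor p27, fell by 0.33 on the log2 scale (limma adjusted p = 0.0013). E2f1, an activator of S phase genes, which is named here after its values were seen, fell by 0.31 (limma adjusted p = 0.0066). Of the other called regulators, Nfya, Skp2, Rbbp4 and E2f4 fell by 0.36, 0.45, 0.16 and 0.22 on the log2 scale. Tfdp2 and Rbl2 rose by 0.29 and 0.12. The share called lower was 14.3% for the further S phase genes, 20% for the further mitosis genes and 18.2% for the regulators, each at or below the 21.0% of all listed genes.

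Markers of several WAT cell types also differed between the groups. Of 13 macrophage markers, 10 fell and 0 rose, with a median log2 fold change of -0.61, and their mean level relative to the gene mean was 0.15 to 0.40 in HFD mice and -0.50 to -0.03 in IMC mice. Their summed level was 22569 to 26356 CPM in HFD mice and 17809 to 21372 CPM in IMC mice. These sums include Lpl, lipoprotein lipase, which adipocytes also express, at 9732 to 10279 CPM in HFD mice and 10432 to 12084 CPM in IMC mice. Without Lpl, left out after its values were seen, the sum was 12328 to 16625 CPM in HFD mice and 6551 to 10442 CPM in IMC mice, and the mean level was 0.17 to 0.44 and -0.55 to -0.03. Of 8 progenitor and fibroblast markers, 5 fell and 0 rose (median -0.32), with a mean level of 0.09 to 0.38 and -0.36 to -0.01. All 10 adipocyte markers rose (median 0.89), with a mean level of -0.86 to -0.18 in HFD mice and 0.18 to 0.69 in IMC mice. Their summed level was 9106 to 13126 CPM in HFD mice and 18162 to 22427 CPM in IMC mice, so adipocyte transcripts were abundant in every mouse, as the tissue label implies. Of 6 endothelial markers, 0 fell and 1 rose. The 11 S phase members had a mean level of -0.01 to 0.30 in HFD mice and -0.20 to 0.10 in IMC mice, and the 28 mitosis members -0.06 to 0.29 and -0.29 to 0.13. The part of these shifts in the members' values was not tested.

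**Figure D5:**
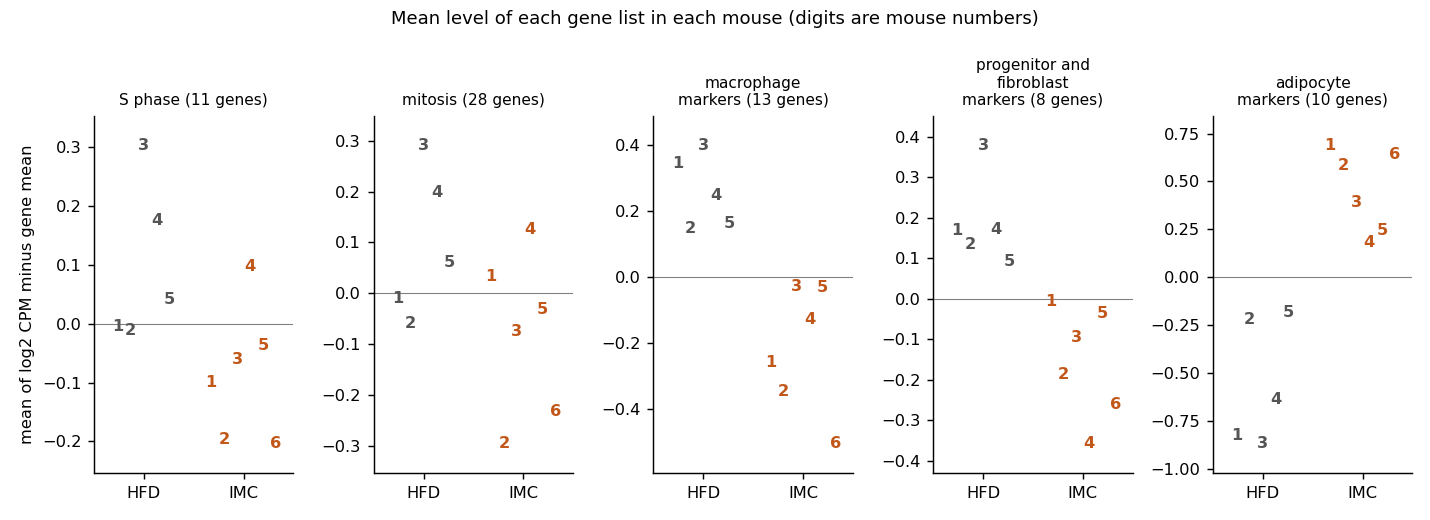
Mean over the genes of each list of log2 CPM minus the gene mean, in each mouse (digits are replicate numbers), for S phase and mitosis members and for macrophage, progenitor and fibroblast, and adipocyte markers, with a separate y scale per panel. The marker lists do not overlap between HFD and IMC mice, whereas the S phase and mitosis members do.

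Within the HFD mice, replicate 3 had the highest macrophage level (0.40) and the highest progenitor and fibroblast level (0.38). Its S phase and mitosis levels were also the highest (0.30 and 0.29). HFD replicate 1 had the next highest macrophage level (0.34), but its S phase and mitosis levels were -0.005 and -0.011. HFD replicate 4, next for the members (0.18 and 0.20), had a macrophage level of 0.25. HFD replicate 2 had the lowest macrophage level of the HFD mice (0.149) and their lowest S phase and mitosis levels (-0.012 and -0.060). Within the IMC mice, replicate 6 had the lowest macrophage level (-0.50) and one of the 2 lowest S phase and mitosis levels (-0.20 and -0.23). IMC replicate 2 had the next lowest macrophage level (-0.346) and the other of these levels (-0.197 and -0.295). How the levels go together across mice was not tested. IMC replicate 4, the highest for the members (0.10 and 0.13), had the lowest progenitor and fibroblast level (-0.36) and a middle macrophage level (-0.13). Other blood cells were less covered. All 6 mast cell markers fell (median -1.43), 0 of 3 listed T and NK cell markers was called (of 10 looked for), and none of 5 B cell markers was in the table. Of 4 listed mesothelial markers 1 fell, and none of 5 epididymis markers was in the table. Both listed skeletal muscle markers (of 6 looked for) rose, Acta1 by 1.23 and Myh2 by 3.02 on the log2 scale. Myh2 had a mean of only -1.10 log2 CPM in HFD mice and 1.92 in IMC mice. The authors removed transcripts that were low in all samples, so Myh2 may be listed only because of its level in IMC mice. The summed level of the 2 skeletal muscle markers was 12.2 to 17.4 CPM in HFD mice and 29.8 to 55.7 CPM in IMC mice.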

How the data were processed

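RNA from the gonadal WAT of 11 mice was made into directional mRNA libraries, and the paper's methods and the submitters' processing notes name Trim Galore, FastQC, STAR and edgeR with the mm10 build. The authors counted reads per gene with the aligner on UCSC transcripts, removed transcripts with few reads and scaled libraries by the upper quartile. They deposited log2 CPM for 12787 genes in each mouse. The columns of the authors' own comparison, with a fold change, a mean level, a test statistic, a p-value and an FDR per gene as deposited, were not used.

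The members and gene lists were chosen with earlier results of these data known. Because the unit is log2, limma 3.58.1 in R 4.3.3 (lmFit, eBayes with trend, group as the only factor) was fitted to all 12787 genes, with Benjamini-Hochberg adjustment over all of them and a threshold of 0.05, and no further filter. The values correspond to whole reads plus a small constant (largest difference 5e-09 log2 CPM), and the recovered reads served for depth, total-count and median-of-ratios scaling, a constant of 2 reads and limma voom. Depth and reads cover counting error only. Exact permutation tests over all 462 splits (smallest p 0.00216) were run for single members and were not adjusted.

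Values (each HFD mouse, and the lowest, median and highest of the IMC mice) are given for 8 members set by name, for up to 5 called members of each class with the largest fold change, for members called against their class (0 were) and for the smallest fold change of each class, and 3 genes with the smallest p for each further list. Mice were numbered within a group in accession order, so numbers do not pair mice, and the labels name no batch. Each library is from a separate mouse. Gene positions and promoters are from RefSeq (GRCm38.p6, the assembly of mm10) and shared windows and transcript lengths from GENCODE transcripts. Of 35 member starts, 31 matched a GENCODE transcript of the gene on the printed strand and 0 on the other. Scripts were tested on simulated data. Python 3.11.15, numpy 2.4.6, pandas 2.3.3 and matplotlib 3.10.9 were used.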

Additional observations from a re-analysis of the deposited data

Results flagged for a closer look

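Among the 78 sets of values checked (39 members in each of 2 groups), 2 had a mouse far from the others of its group by Dixon's criterion. By chance the criterion flags 1 in 20 independent sets. The members rose and fell together from mouse to mouse, so the count of 2 cannot be set against that rate. Both were HFD replicate 3, the mouse with the highest level for most members. Its log2 CPM was 4.92 for Prc1, where the other HFD mice lay between 4.62 and 4.67, and 4.65 for Kif20a, where they lay between 4.09 and 4.24.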

How the results depend on the processing

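The counts of called genes were recomputed without a variance trend, with a robust prior, with means of at least 1 or 3 log2 CPM, with 3 other scalings, with 2 reads added, with limma voom and without each mouse. In the first 9 of these settings all 8 calls among the members were kept. With total-count scaling 12 members were called lower (30.8%), against 25.5% of all listed genes in that fit. Of these 12 members, 5 were in S phase, and 14 of the other S phase genes were also called lower. Median log2 fold changes over all genes were between -0.06 and -0.02 under the scalings. Leaving out 1 mouse moved the count of members called lower between 3 and 15 and of those called higher between 0 and 1, or 7.69% to 38.5% of members lower, against 16.5% to 20.4% of all listed genes in those fits. In S phase the count was 2 to 5 of 11 members lower, in mitosis 1 to 10 of 28 lower and 0 to 1 higher. Of the 63 other S phase genes, 5 to 14 were called lower. Of the 80 other mitosis genes, 9 to 20 were called lower and 1 to 3 higher. The background for these counts of lower genes is the same 16.5% to 20.4% of all listed genes. Members without overlap were 1 with equal medians, 4 with total-count scaling and 2 to 5 without 1 mouse. The share of all listed genes without overlap was not computed in these settings, so these counts cannot be set against a background. The log2 fold change of Ect2 ran from -0.069 (without HFD replicate 5) to 0.065 (without HFD replicate 3), with a positive sign also without HFD replicate 4 and IMC replicates 2, 5 and 6. With promoters read only before the start, a CHR was found at 12 mitosis starts. No paired analysis was possible because the mice carry no shared numbers in the labels. Members had at least 71 reads in every mouse, with a median SE of 0.098 on the log2 scale.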
